A study of Oryza sativa Japonica Group with 12 samples.

Results

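MADS-box transcription factors of the SVP and SOC1 types were followed in panicles of WT rice and of the female-sterile mutant fst. The 5 genes were taken by name, by a rule that holds no measured value, although earlier results of these data were known when they were chosen. The SVP type was represented by OsMADS22 (LOC4330805), OsMADS47 (LOC4331872) and OsMADS55 (LOC4340495), and the SOC1 type by OsMADS50 (LOC4331445) and OsMADS56 (LOC4349237). Each had 1 probe set on the Affymetrix Rice GeneChip, so the 5 genes made up 5 of 17905 genes with a probe set, and 5 of 57258 probe sets tested. RefSeq places OsMADS22 on chromosome 2, OsMADS47 and OsMADS50 on chromosome 3, OsMADS55 on chromosome 6 and OsMADS56 on chromosome 10.

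In Arabidopsis, SVP and SOC1 are MADS-box proteins that set the time of flowering in opposite directions, SVP as a repressor and SOC1 as an activator into which several flowering pathways feed. Both types also act after the floral transition, where they keep inflorescence and floral meristems in step with the genes that specify floral organs. In rice, the SVP type genes are known for their part in floral meristem identity and as negative regulators of the response to brassinosteroids, a class of steroid hormones, and the SOC1 type genes OsMADS50 and OsMADS56 act in the long-day branch of the flowering pathway, upstream of the B3-domain factor OsLFL1 and of Ehd1.

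The samples were whole panicles of a japonica rice grown in a greenhouse under natural daylight, in 4 groups of 3 arrays each. WBF and MBF were WT and homozygous fst panicles before flowering (BF), and W5D and M5D were WT and fst panicles at 5 days after pollination (5 DAP). The fst line carries a spontaneous frame-shift deletion in the B-sister MADS-box gene FST (OsMADS29), in the cultivar Junambyeo, and it is a single mutant allele. Each sample pooled 20 panicles from 10 plants, and the samples of a group are labelled as biological replicates, so plant-to-plant variation within a pool was not measured. For the fst arrays 1 label, the description, speaks of wild lines, while title, source name and genotype all give the mutant, and these last were used to assign the groups. Since whole panicles were measured, fewer cells of a type and less RNA per cell cannot be told apart in any value below.

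Values are signals on a linear scale, summarized by the authors with RMA, and are given as mean ± SD over 3 arrays. Changes are log2 differences between groups with the standard error (SE) of limma, which was fitted to all 12 arrays, and p was adjusted over all 57258 probe sets by the Benjamini-Hochberg method with a threshold of 0.05. The median signal of an array was 30.8 to 33.6, and arrays of 1 group correlated at 0.990 to 0.996. The comparisons share arrays with each other, so they are not independent. The probe set of FST read 116, 123 and 106 in WBF against 235, 211 and 236 in MBF, and overlapped between genotypes at 5 DAP, and since the deletion leaves a transcript these values do not check the genotype labels. Of 4 leaf genes, used as markers of green tissue, RBCS was higher in fst at 5 DAP (0.51 on the log2 scale, adjusted p = 0.0260) and the other 3 passed no comparison of the genotypes, and their summed signal, most of it from CAB2R, was 12892 to 14689 on every array.

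**Figure D1:**
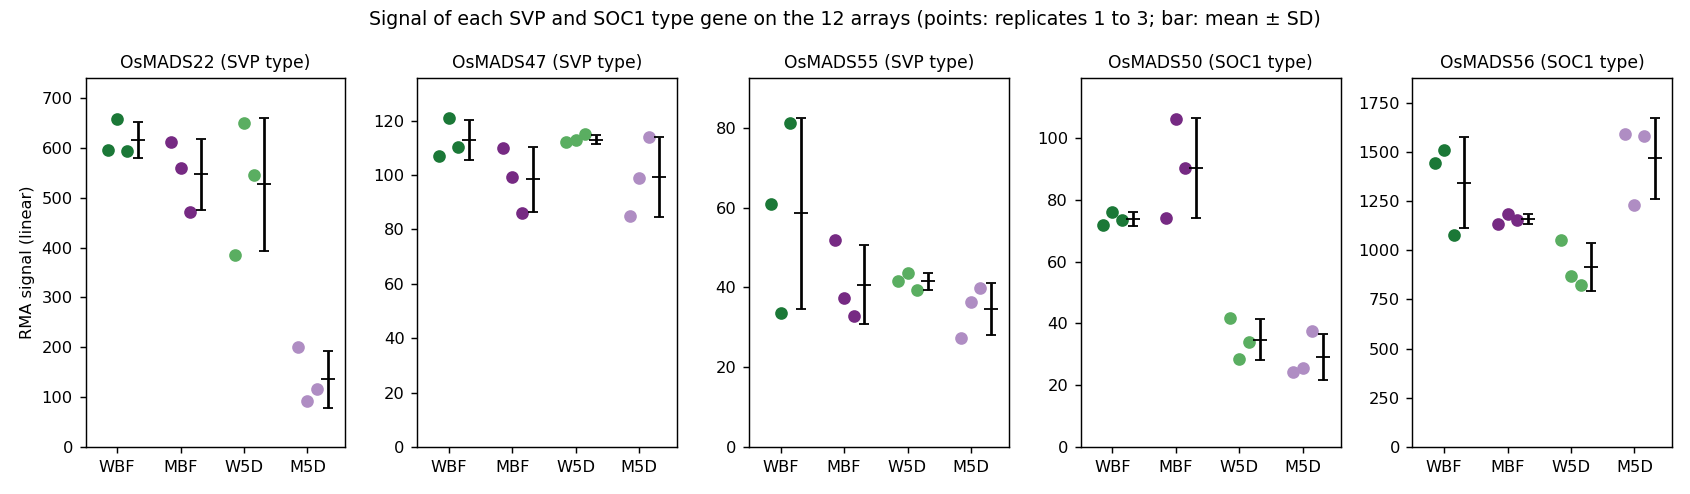
Signal on a linear scale (vertical axis, starting at 0 and scaled separately for each gene) of the 3 SVP type and the 2 SOC1 type genes in the groups WBF, MBF, W5D and M5D (horizontal axis), with 1 point per array and the mean ± SD of 3 arrays. OsMADS22 stood at 92.5 to 201 in M5D and at 385 or more on every other array, OsMADS50 was lower at 5 DAP in both genotypes, and OsMADS56 was higher in M5D than in W5D.

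OsMADS22 was the SVP type gene that differed between the genotypes, and it did so at 5 DAP. Its product is an SVP type factor whose ectopic expression disturbs spikelet and floral meristems in rice. Before flowering its signal was 596, 657 and 594 in WBF and 611, 559 and 470.3 in MBF. At 5 DAP it was 385, 649 and 546 in W5D and 201, 92.5 and 116 in M5D. The WT arrays of both stages and the fst arrays before flowering thus covered one range, and all 3 arrays of M5D lay below the lowest of them.

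At 5 DAP the mean signal of OsMADS22 was 527 ± 133 in WT and 136 ± 57.2 in fst. The signal was 3.99-fold lower in fst. On the log2 scale this was −1.99 (SE 0.25, adjusted p = 0.000186), with a 95% interval from −2.53 to −1.46. In this comparison 11.6% of all probe sets passed the threshold in either direction, and of the 5 genes OsMADS22 was lower, OsMADS56 was higher and 3 did not pass. Only 369 of the probe sets tested (0.644%) had a log2 change below that of OsMADS22. The probe set of OsMADS22 is among the genes that the study picked by signal ratio on these same arrays at 5 DAP, so this value is not independent evidence of its direction. Its name carries the mark of a probe set that can match several related transcripts, and the signal of close relatives could not be separated from its own.

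Before flowering OsMADS22 stood at 616 ± 35.6 in WT and 547 ± 71.4 in fst, which is −0.18 on the log2 scale (SE 0.25, adjusted p = 0.720), and its 95% interval of −0.71 to 0.36 does not include the value measured at 5 DAP. The difference between the 2 genotype effects was tested as an interaction and was −1.82 on the log2 scale with an SE of 0.35 and an adjusted p of 0.00904. At this interaction 6.35% of all probe sets passed, and among the 5 genes OsMADS22 passed with a negative and OsMADS56 with a positive value. Within fst, OsMADS22 fell by 2.07 on the log2 scale from BF to 5 DAP (SE 0.25, adjusted p = 2.66e-05). Within WT the stage change was −0.26 (SE 0.25, adjusted p = 0.482), with a 95% interval of −0.79 to 0.28. In order of level the groups ran WBF, MBF, W5D and M5D, and only the step from W5D to M5D was free of overlap.

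Endosperm genes moved in the same direction as OsMADS22 between W5D and M5D. Of 10 endosperm markers measured, 8 were lower in fst at 5 DAP, and their summed signal was 5175, 18546 and 11905 on the W5D arrays against 1982 to 2350 in M5D. The storage protein genes GluA1, GluA3 and GluC had mean signals of 1973, 1553 and 1320 in W5D and of 7.55, 5.25 and 5.01 in M5D. The storage protein gene GluA2 of the same list, given by 1 of its 2 probe sets, did not follow, at 167 in W5D and 178 in M5D. GluB4 was at 7.58 in W5D and 7.62 in M5D. These means lay below the lower quartile of every array (10.1 to 11.3), too low to show a fall. GluA2 was higher before flowering, at 571 in WBF and 912 in MBF. Within W5D, replicate 1 had the lowest endosperm sum and the lowest OsMADS22 signal, and replicate 2 had the highest of both. Before flowering the endosperm sum was 1857 to 2473 in WT and 2295 to 2471 in fst, close to the M5D sums. These low sums came mostly from SBE1 (means of 1254 in WBF, 1150 in MBF and 1717 in M5D) and GluA2. GluA1, GluA3 and GluC had means of 4.77 to 6.94 in WBF and MBF, so the sum does not measure endosperm there. OsMADS22 was at 470.3 or more on all 6 arrays before flowering. Leaving out W5D replicate 1 gave OsMADS22 a log2 change of −2.20 with an adjusted p of 0.000195 at 5 DAP. The part of the endosperm in the OsMADS22 values was not tested further.

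OsMADS47 had group means of 98.4 to 113 and passed no comparison. This SVP type gene, also named OsMDP1, is a negative regulator of brassinosteroid responses in rice. Its signal was 107, 121 and 110.2 in WBF and 109.9, 99.2 and 86.2 in MBF. At 5 DAP it was 112, 113 and 115 in W5D and 84.9, 98.8 and 114 in M5D. WT and fst arrays overlapped at both stages, although the fst mean was the lower at each.

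The log2 change of OsMADS47 in fst was −0.20 before flowering (SE 0.12, adjusted p = 0.369) and also −0.20 at 5 DAP (SE 0.12, adjusted p = 0.395). Both 95% intervals ran from −0.47 to 0.07, so a fall to 0.723 of the WT level or a rise to 1.05 times that level lies within them. Between the stages the change was 0.01 in WT, with a 95% interval of −0.26 to 0.28, and 0.01 in fst, with the same interval. The genotype effects of the 2 stages differed by 0.00 with an interval of −0.38 to 0.38.

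OsMADS55, the third gene of the SVP type, which also acts in brassinosteroid responses, varied most between replicates. Its signal was 60.9, 33.6 and 81.3 in WBF, and 51.8, 37.4 and 32.8 in MBF. It was 41.5, 43.6 and 39.3 in W5D and 27.3, 36.3 and 39.9 in M5D. The WBF range held all W5D values and all MBF values but the lowest, and W5D and M5D met at their edges. The SD of its log2 signal in WBF was 0.65, the highest of any group for the 5 genes, against a median SD of 0.14 over all probe sets and groups.

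None of the comparisons of OsMADS55 passed the threshold. The log2 change in fst was −0.46 before flowering (SE 0.27, adjusted p = 0.340), with a 95% interval of −1.04 to 0.12, and −0.28 at 5 DAP (SE 0.27, adjusted p = 0.633), with an interval of −0.86 to 0.30. Without 1 array the change before flowering ran from −0.18 (without WBF replicate 3) to −0.82 (without WBF replicate 2, adjusted p = 0.0685), and that at 5 DAP was −0.12 without M5D replicate 1. The summed signal of 8 anther genes, most of it from RTS (mean of 12255 in WBF), was 17821, 8591 and 18404 in WBF, also lowest in replicate 2. In MBF it was 3731, 9532 and 2967, highest in replicate 2, where OsMADS55 was not highest. Before flowering 3 of these 8 genes were lower in fst and 0 higher. The part of the anther genes in the OsMADS55 values was not tested. The stage change in WT was −0.41 with an adjusted p of 0.286, and it became −0.76 with an adjusted p of 0.0178 without WBF replicate 2, the array with the low WBF signal, and −0.13 without WBF replicate 3. The genotype effects of the stages differed by 0.18, with an interval of −0.64 to 1.00, so neither direction can be given. Before flowering 4.62% of all probe sets passed the threshold between the genotypes, and none of the 5 genes did.

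OsMADS50 was lower at 5 DAP than before flowering in both genotypes and passed no comparison between them. This SOC1 type gene promotes flowering in rice, and its loss delays heading under long days. Before flowering its signal was 71.8, 76.1 and 73.5 in WBF and 74.1, 106 and 90.2 in MBF. At 5 DAP it was 41.7, 28.3 and 34.1 in W5D and 24.4, 25.4 and 37.5 in M5D, around the median signal of an array (30.8 to 33.6). All 6 arrays before flowering lay above all 6 arrays at 5 DAP, and WT and fst arrays overlapped at each stage.

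Within WT, OsMADS50 fell from 73.8 ± 2.16 to 34.7 ± 6.70, by 1.11 on the log2 scale (SE 0.18, adjusted p = 0.000448). Within fst it fell from 90.3 ± 16.2 to 29.1 ± 7.30, by 1.65 on the log2 scale (SE 0.18, adjusted p = 1.54e-05). In the stage comparison of WT 31.3% of all probe sets passed, and in that of fst 26.7%. Against this, 2 of the 5 genes passed in WT (OsMADS50 and OsMADS56) and 2 in fst (OsMADS50 and OsMADS22), all of them lower at 5 DAP. The genotype change of OsMADS50 was 0.27 before flowering (SE 0.18, adjusted p = 0.414), with a 95% interval of −0.12 to 0.67, and −0.26 at 5 DAP (SE 0.18, adjusted p = 0.474), with an interval of −0.66 to 0.14. The stage falls of the genotypes differed by −0.54 (SE 0.26, adjusted p = 0.246), and the interval of −1.10 to 0.03 leaves a difference in this direction possible. Markers of lodicules, stamens and anthers moved with OsMADS50 between the stages. All 3 lodicule and stamen genes were lower at 5 DAP in both genotypes, with summed signals of 16009 to 18666 before flowering and 3850 to 6161 at 5 DAP, and 5 of 8 tapetum, anther and pollen genes were lower in both, with sums of 2967 to 18404 and 672 to 881. Ovary, ovule and carpel genes mostly went the other way, with 4 of 6 higher at 5 DAP in each genotype and 2 lower in WT. The part of any of these markers in the OsMADS50 values was not tested.

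OsMADS56 was higher in fst than in WT at 5 DAP. It is the other SOC1 type gene, its product forms a complex with that of OsMADS50, and its overexpression delays flowering in rice. Before flowering its signal was 1442, 1512 and 1079 in WBF and 1135, 1184 and 1153 in MBF. At 5 DAP it was 1054, 869.6 and 825 in W5D and 1593, 1229 and 1579 in M5D. The MBF arrays lay inside the WBF range, whereas all 3 arrays of M5D lay above all 3 of W5D.

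At 5 DAP the mean of OsMADS56 was 916 ± 122 in WT and 1467 ± 206 in fst, 1.60-fold higher. On the log2 scale this was 0.68 (SE 0.15, adjusted p = 0.00927). The 95% interval was 0.36 to 1.00, and 1645 probe sets (2.87%) had a larger positive change. Before flowering the means were 1344 ± 233 and 1157 ± 25.1, and the change of −0.20 did not pass (SE 0.15, adjusted p = 0.461, 95% interval −0.52 to 0.12). Within WT the signal fell by 0.55 on the log2 scale from BF to 5 DAP (SE 0.15, adjusted p = 0.0127). This call was lost without WBF replicate 1 (−0.49, adjusted p = 0.0558), WBF replicate 2 (−0.45, adjusted p = 0.0625) or W5D replicate 3 (−0.47, adjusted p = 0.0559). Within fst the change was 0.33 with an adjusted p of 0.128. In order of level the groups ran M5D, WBF, MBF and W5D, and the ranges of M5D and WBF and of WBF and MBF overlapped.

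The genotype effect on OsMADS56 differed between the stages by 0.88 on the log2 scale (SE 0.21, adjusted p = 0.0270), with a 95% interval of 0.42 to 1.33. This interaction stood close to the threshold. It did not pass without any 1 of 9 arrays (WBF replicates 1 and 2, all of MBF, W5D replicates 2 and 3, and M5D replicates 1 and 3), where it was 0.79 to 0.89 with an adjusted p of 0.0520 to 0.0724. It also did not pass when signals were raised to at least 16 before the log (adjusted p = 0.0611). The genotype change at 5 DAP kept its call without each array in turn, at 0.61 to 0.80 with an adjusted p of 0.00474 to 0.0467. Ovary and carpel markers, most of which are themselves MADS-box genes, moved with OsMADS56 at 5 DAP, with 5 of 6 higher in fst. Their summed signal was 8969 to 10200 in W5D and 13006 to 14710 in M5D, most of it from OsMADS58 (means of 5850 and 8547). The list includes FST itself. From BF to 5 DAP in WT, where OsMADS56 fell, 4 of the 6 rose and 2 fell, and their sum in WBF was 5035 to 5537. The part of these markers in the OsMADS56 values was not tested.

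**Figure D2:**
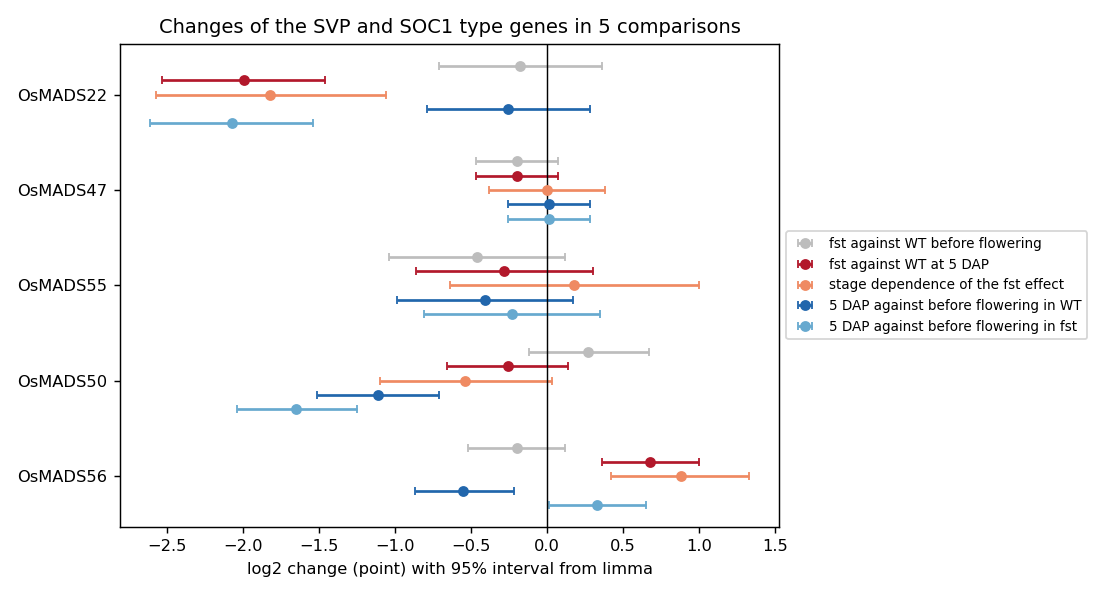
Log2 change (horizontal axis, point) with its 95% interval from limma for each of the 5 genes (vertical axis) in the 5 comparisons, distinguished by colour. At 5 DAP the fst effect was −1.99 for OsMADS22 and 0.68 for OsMADS56, and the intervals of OsMADS47 and OsMADS55 include 0 in all 5 comparisons.

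The 5 genes did not share one profile over the arrays. OsMADS22 and OsMADS56 moved in opposite directions in fst at 5 DAP, and over the 12 arrays their log2 signals correlated at r = −0.44. Within the SOC1 type, OsMADS50 and OsMADS56 correlated at 0.09. Within the SVP type, r was 0.30 for OsMADS22 and OsMADS47, 0.39 for OsMADS22 and OsMADS55, and 0.45 for OsMADS47 and OsMADS55. The highest r of any pair was 0.61, between OsMADS22 and OsMADS50 across the types, both of which were lowest in M5D. These values describe 12 arrays in 4 groups and carry no test. The median log2 change of the 5 genes was −0.20 before flowering and −0.26 at 5 DAP, beside 0.04 and 0.01 over all probe sets.

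The genes most like OsMADS22 over the 12 arrays were sought among 3157 brighter probe sets with 1 named gene. MCM3, a subunit of the replicative DNA helicase, came first with r = 0.977, and its mean signal was 415, 368, 392 and 129 in WBF, MBF, W5D and M5D. Like OsMADS22 it stood at one level in 3 groups and dropped out of that range in M5D. It was followed by PDIL5-1 of the protein disulfide isomerase family (0.970), RPA14, a subunit of replication protein A (0.957), RSZ21A, a splicing factor (0.949), and OsBiP1, a chaperone of the endoplasmic reticulum (0.946). For all 5 the lowest group mean was that of M5D, with log2 changes of fst against WT at 5 DAP from −0.68 (RPA14) to −1.88 (PDIL5-1), beside −1.99 for OsMADS22. The 5 were picked by r over these same arrays, so their low point in M5D follows from the choice and is no separate result.

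OsMADS50 had the closest companions of the 5 genes, led by the protein phosphatase gene OsPP2C78 at r = 0.986 and the floral MADS-box gene OsMADS6 at 0.974. CIPK10, a protein kinase gene, LOGL6, of the cytokinin-activating family, and BBD1 followed at 0.972, 0.971 and 0.971. All of these were lower at 5 DAP in both genotypes, as OsMADS50 was, and LOGL6 went from 186 in WBF and 257 in MBF to 38.3 in W5D and 37.8 in M5D. For OsMADS56 the first was MYBS3, a MYB factor of the sugar response, at r = 0.924, with mean signals of 822, 761, 642 and 970.1 in WBF, MBF, W5D and M5D. CPK3, OsC3H19, CKI1 and OsARF1 followed at 0.898 to 0.873, and each of them, like OsMADS56, was lowest in W5D. OsMADS47 and OsMADS55 had no companion above 0.751 (LOC4341069) and 0.761 (SWEET6A), respectively. All of these companions were picked by r over the same arrays, so the profiles they share with OsMADS50 or OsMADS56 follow from the choice.

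**Figure D3:**
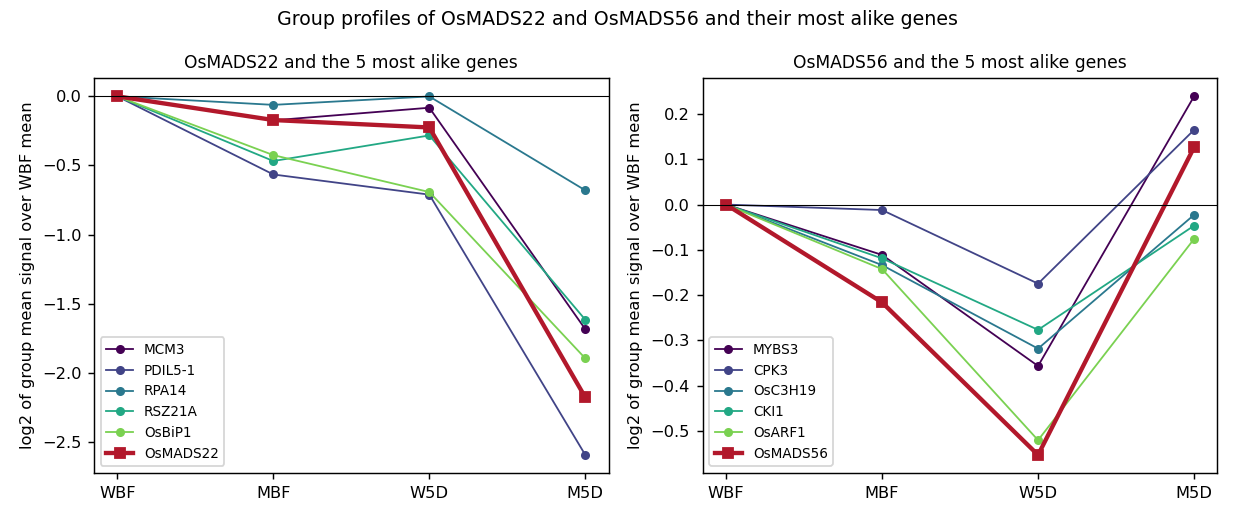
Group means of OsMADS22 and its 5 most similar genes (left) and of OsMADS56 and its 5 (right) as log2 of the mean signal over that of WBF (vertical axis, scaled separately), in the order WBF, MBF, W5D and M5D (horizontal axis). The left set has its low point in M5D and the right set in W5D, which follows from choosing the genes by r on these arrays. The lines join groups to guide the eye and do not stand for a time course.

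The flowering pathway in which the SOC1 type genes act was measured for 19 of 41 genes searched. The paper reports earlier flowering of fst plants than of WT, and gives no date or hour for the panicle samples. Whether daylength or hour differed between the genotypes, and its part in the values of this pathway, was not tested. None passed between the genotypes before flowering, when 4.62% of all probe sets did. At 5 DAP 4 were higher and 1 lower in fst, beside 11.6% of all probe sets called in either direction, with a median log2 change of 0.26. The lower one was OsLFL1, which in rice acts downstream of OsMADS50 and OsMADS56 and represses Ehd1. Its signal was 79.6 ± 28.9 in W5D and 19.6 ± 6.32 in M5D, a log2 change of −2.00 (SE 0.26, adjusted p = 0.000273). Before flowering OsLFL1 was at 473 ± 87.4 in WT and 707 ± 17.1 in fst (log2 change 0.60, adjusted p = 0.208), and the genotype effects differed by −2.60 (SE 0.37, adjusted p = 0.00141). Set beside OsMADS50, OsLFL1 changed from BF to 5 DAP by −2.62 in WT and −5.22 in fst on the log2 scale (adjusted p = 4.90e-06 and 4.46e-09), whereas OsMADS50 changed by −1.11 and −1.65. Set beside OsMADS56, it was lower in fst at 5 DAP where OsMADS56 was higher.

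The higher genes of the pathway at 5 DAP were Hd1, the rice CONSTANS, at 0.82 (SE 0.21, adjusted p = 0.0221), Ehd4, an activator of Ehd1, at 0.59 (SE 0.14, adjusted p = 0.0145), and PHYA, a phytochrome gene, at 0.56 (SE 0.12, adjusted p = 0.00887). The fourth, named after its values were seen, was PHYB, another phytochrome gene, at 0.55 (SE 0.09, adjusted p = 0.00147). OsMADS56, at 0.68, moved in the same direction as these 4. The call of Hd1 was lost without W5D replicate 2 (0.55), M5D replicate 2 (0.82) or M5D replicate 3 (0.71), with adjusted p of 0.0542 to 0.0846, and that of Ehd4 without W5D replicate 1 (0.57, adjusted p = 0.0505). Hd1 also lost it in a fit of only W5D and M5D (adjusted p = 0.0624) and with signals raised to at least 16 (adjusted p = 0.0699), and Ehd4 in the former (adjusted p = 0.0629). The florigen gene Hd3a, which acts below Ehd1, was at 198 ± 75.9 in W5D and 311 ± 36.0 in M5D, a log2 change of 0.72 that missed the threshold (SE 0.22, adjusted p = 0.0524). It passed without W5D replicate 3, at 1.00 with an adjusted p of 0.00513, and under 5 of 8 other settings, at 0.70 to 0.76 with adjusted p of 0.0370 to 0.0483.

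Brassinosteroid genes, whose responses the SVP type factors restrain in rice, were measured for 11 of 20 searched. At 5 DAP 7 were higher in fst and none lower, beside 11.6% of all probe sets called in either direction, with a median log2 change of 0.50. Whether these changes depend on OsMADS22 or another SVP type gene was not tested. D11, a cytochrome P450 of brassinosteroid synthesis, went from 46.3 ± 3.13 in W5D to 119 ± 30.8 in M5D, a log2 change of 1.33 (SE 0.16, adjusted p = 0.000131). BRD1, which encodes the P450 of a late step, went from 1069 ± 68.0 to 2426 ± 679, a change of 1.14 (SE 0.16, adjusted p = 0.000576). BU1, a helix-loop-helix factor of the response, rose by 0.76 (adjusted p = 0.000883) and the receptor gene BRI1 by 0.52 (adjusted p = 0.00869). GSK2, a kinase gene that restrains the response, was also among the 7 higher genes, at 0.34 to 0.59 without 1 array. Its call was lost without W5D replicate 1, W5D replicate 3 or M5D replicate 3 (adjusted p = 0.0557 to 0.0786). Before flowering 1 gene of the list was higher in fst, the ubiquitin ligase gene TUD1 at 0.59 (adjusted p = 0.00542), and none lower. The probe sets of D11 and PHYA, like that of OsMADS22, carry the mark of possible matches to related transcripts.

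Of 19 names of genes that shape inflorescence branching, 7 matched a measured gene. The name RCN1 matched a locus also named OsABCG5, and OsIDS1 a locus also named OsMT1b. Neither is the branching gene that was meant, so the counts of this list include them wrongly. OsSPL14, a factor that promotes panicle branching, was higher in fst at 5 DAP by 0.65 (SE 0.16, adjusted p = 0.0171), a call lost without W5D replicate 1, M5D replicate 1 or M5D replicate 3 (0.51 to 0.62, adjusted p = 0.0526 to 0.0738) and in a fit of only W5D and M5D (adjusted p = 0.0513). The other 6 matched genes did not pass at 5 DAP, and none of the 7 passed before flowering. OsMADS34, a partner of the SVP and SOC1 type factors in the panicle, stood at 232 ± 35.8 in WBF, 199 ± 20.3 in MBF, 53.7 ± 12.4 in W5D and 70.2 ± 13.5 in M5D. Its genotype change at 5 DAP was 0.39 (SE 0.18, adjusted p = 0.229), and both of its means at 5 DAP were below those before flowering, as were those of OsMADS50.

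Beside the 5 genes, 25 other MADS-box genes had a probe set. At 5 DAP 7 of them were higher in fst and none lower, with a median log2 change of 0.16 and 11.6% of all probe sets called, so OsMADS56 shared its direction with 7 others, and OsMADS22 was the only MADS-box gene measured that was lower past the threshold. The largest of these changes were those of OsMADS13 (0.95, adjusted p = 0.000140), OsMADS21 (0.79, adjusted p = 0.0119), OsMADS2 (0.74, adjusted p = 0.000388) and OsMADS3 (0.71, adjusted p = 0.00109), which specify ovules, lodicules and reproductive organs. That of OsMADS21 was lost without W5D replicate 3 (0.62, adjusted p = 0.0576). Before flowering, when none of the SVP and SOC1 type genes passed, OsMADS27 (0.96, adjusted p = 0.0487) and OsMADS21 (0.83, adjusted p = 0.0214) were higher and OsMADS26 (−0.89, adjusted p = 0.0114) was lower. The call of OsMADS27 was lost without any 1 of 10 arrays (all but M5D replicates 1 and 3), at an adjusted p of up to 0.129, and with arrays centred on 1 median (0.91, adjusted p = 0.0668). That of OsMADS21 was lost without WBF replicate 3, MBF replicate 1 or MBF replicate 3 (0.69 to 0.80), and that of OsMADS26 without WBF replicate 1 (−0.81, adjusted p = 0.0576).

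**Figure D4:**
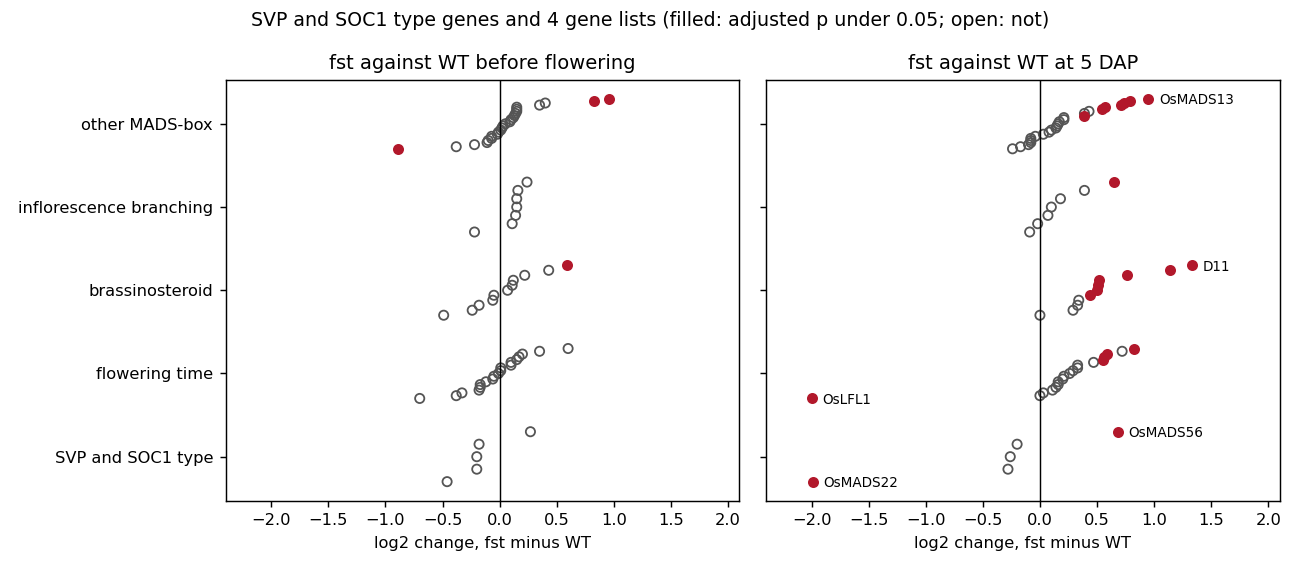
Log2 change of fst against WT (horizontal axis) before flowering (left) and at 5 DAP (right) for the SVP and SOC1 type genes and the 4 gene lists (rows on the vertical axis), with 1 point per gene, filled where the adjusted p was under 0.05. At 5 DAP OsMADS22 and OsLFL1 stand at −1.99 and −2.00, and every other filled point lies on the positive side.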

How the data were processed

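Total RNA of panicles was hybridized to the Affymetrix Rice GeneChip. The deposited values are intensities on a linear scale, which the authors computed with RMA in Affymetrix Expression Console (versions not given in the sources used here). RMA subtracts background, equalizes the arrays' distributions and combines the probes into 1 value, so shifts common to most genes are not visible. No columns of other samples were present. Signals were raised to at least 1, taken to log2 and fitted with a mean per group in limma 3.58.1 (R 4.3.3) over 12 arrays, with 8 residual degrees of freedom, then eBayes. The fit was tested on simulated data. Of 57381 probe sets, 123 controls were left out.

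Tested were the genotypes against each other at either stage, the difference of these effects (interaction), and the stages against each other within either genotype. P was adjusted by Benjamini-Hochberg. With 3 arrays a group, the p-values measure the spread between these pools. The methods name a signal ratio and no test. Probe sets were named with the platform's gene table (22436 had 1 gene, 95 several, 34727 none) and RefSeq synonyms, and a gene with several probe sets was stood for by its brightest. Named were the 5 genes, at most 4 of each list and contrast that passed, Hd3a and OsMADS34 whatever their values, the 5 genes most alike in Pearson r among probe sets above the median signal, and FST. OsMADS14, OsMADS15, OsMADS18 and OsMADS20 stood in both the flowering time and the MADS-box lists, and OsMADS34 in both the branching and the MADS-box lists. The genes, lists and tests were chosen with earlier results of these data known. Alternatives were 2 other scalings, filters on dim and on cross-hybridizing probe sets, a higher floor, fewer groups in the fit, another prior, the replicate block and leaving out each array.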

Additional observations from a re-analysis of the deposited data

Results flagged for a closer look

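The genotype effect was not the same at both stages, past an adjusted p of 0.05, for the genes that follow, each given as the log2 effect at 5 DAP minus that before flowering. Among the SVP and SOC1 type genes it was −1.82 for OsMADS22 and 0.88 for OsMADS56. In the flowering time list it was −2.60 for OsLFL1, 0.89 for PHYA, 0.77 for Ehd4 and 0.54 for OsMADS18. In the brassinosteroid list it was 1.26 for D11, 1.21 for BRD1, 0.67 for GSK2, a kinase gene that restrains the response, and 0.64 for BU1. Among the other MADS-box genes it was 1.04 for OsMADS26, 0.73 for OsMADS3 and 0.58 for OsMADS2. For FST itself it was −1.09.

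Several of these stood close to the threshold. The call of Ehd4 was lost without any array of WBF, MBF or W5D (0.69 to 0.80). That of OsMADS18 was lost without every array in turn except W5D replicate 1 and M5D replicate 2 (0.48 to 0.59). GSK2 was lost without WBF replicates 1 and 2 or any array of MBF or W5D (0.63 to 0.71). BU1 was lost without any array of WBF, MBF replicates 1 and 2, W5D replicates 1 and 2, or M5D replicates 1 and 3 (0.57 to 0.66). OsMADS2 was lost without WBF replicates 1 and 2, MBF replicates 2 and 3, W5D replicates 1 and 2, or M5D replicates 1 and 2 (0.51 to 0.59). OsMADS26 was lost without WBF replicates 1 and 2, MBF replicate 1 or W5D replicate 2 (0.90 to 1.01). The calls of OsMADS22, OsLFL1, PHYA, D11, BRD1 and OsMADS3 were kept without each array in turn.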

How the results depend on the processing

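OsMADS22 kept its calls at 5 DAP (−2.31 to −1.75 without 1 array, −2.00 to −1.96 under 7 other settings) and for the interaction (−2.14 to −1.58 and −1.86 to −1.73). It has no value once cross-hybridizing probe sets are left out. OsMADS50 kept both stage calls (−1.25 to −0.97 in WT and −1.84 to −1.52 in fst without 1 array). For OsMADS56 the interaction was 0.79 to 1.03 without 1 array and 0.88 with signals raised to at least 16, where it did not pass, and the stage change in WT was −0.70 to −0.45 without 1 array. For OsMADS55 the stage change in WT was −0.76 to −0.13 and the interaction −0.10 to 0.54 without 1 array. OsMADS47, near 0, changed sign in the interaction (−0.11 to 0.11 without 1 array, −0.05 with quantile normalization), in the stage change of WT (−0.03 to 0.06, and −0.03 with arrays centred on 1 median) and in that of fst (−0.10 to 0.12). FST at 5 DAP was −0.18 to 0.01 without 1 array, the latter without M5D replicate 2. The cause of these shifts was not tested.

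The number of probe sets past the threshold between the genotypes before flowering was 2644, and 1141 to 3949 without 1 array, lowest without WBF replicate 1. It was 3636 for the interaction, and 2159 to 3709 without 1 array, with 2159 without WBF replicate 1 and 2291 without W5D replicate 3. Centring arrays on 1 median changed 1039 higher and 1605 lower before flowering to 749 and 2072, and 2062 higher and 1574 lower for the interaction to 2947 and 1249.

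Replicate numbers did not pair the arrays: deviations from the group means correlated at −0.29 to 0.072 for 18 pairs of the same number. With the replicate number as a block, 1927 probe sets passed before flowering, 5736 at 5 DAP and 2785 for the interaction, and no call of the 5 genes changed. The block ended the interaction calls of Ehd4 (adjusted p = 0.0656), OsMADS18 (0.0554), GSK2 (0.0781) and OsMADS2 (0.0571) and that of OsMADS27 before flowering (0.0602), and Hd3a passed at 5 DAP (0.0444). Signals raised to at least 16 ended the interaction calls of Ehd4 (0.0724), GSK2 (0.0705) and OsMADS26 (0.0650). With 3 arrays a group, the SE of a genotype change was 0.12 for OsMADS47 and 0.27 for OsMADS55.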
